A study of Homo sapiens with 6 samples.

Results

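Butyrophilins are membrane proteins with immunoglobulin-like outer domains, and the BTN2A and BTN3A genes lie together in a cluster on the short arm of chromosome 6. The genes described here are the 5 protein-coding members of these subfamilies, BTN2A1, BTN2A2, BTN3A1, BTN3A2 and BTN3A3. They were found by matching the Ensembl identifiers of the count tables to these symbols, which gave 5 of the 61541 genes listed. Read counts came from direct RNA nanopore sequencing of poly(A) RNA from RCC4, a single established line of human clear cell renal cell carcinoma. Untreated cultures (3 libraries) were compared with cultures kept for 24 h with IFNγ at 1000 U/mL and TNF at 25 ng/mL (3 libraries). Each biological replicate combined 3 flasks, and no vehicle control is described in the labels. The comparison asks how RNA from these genes differs after exposure to both cytokines together, and neither cytokine alone was analysed here.

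BTN3A1 carries an intracellular B30.2 domain that binds phosphoantigens, small phosphorylated intermediates of isoprenoid synthesis, and this binding leads to recognition of the cell by the main gamma-delta T cell subset of human blood. BTN2A1 binds the gamma chain of that T cell receptor and associates with BTN3A1. BTN3A2 lacks the B30.2 domain and assists BTN3A1 at the cell surface, BTN3A3 has a B30.2 domain that does not bind phosphoantigens, and BTN2A2 is known as an inhibitor of T cell activation. The protein complex RFX binds the X box of MHC promoters, a CCAAT-binding factor binds the nearby Y box, and the co-activators CIITA and NLRC5 act through the proteins bound at these boxes.

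Of the 5 members, RefSeq promoter windows (GRCh38.p14) were matched for 3, BTN3A2, BTN3A3 and BTN2A1, and 4 windows in all. They are shown because 1 window of each gene held both CCNAGCAAC and CCAAT on the plus strand. The strand and spacing of these letters were not compared with those of the X and Y boxes in MHC promoters. Letters were read on the plus strand, on which all 3 genes lie. Capitals mark CCNAGCAAC, the core of an X box, and CCAAT or its reverse complement ATTGG.
BTN3A2 (chr6:26365048-26365176): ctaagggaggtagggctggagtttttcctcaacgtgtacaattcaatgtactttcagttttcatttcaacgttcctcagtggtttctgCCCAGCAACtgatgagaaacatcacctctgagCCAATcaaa
BTN3A3 (chr6:26440354-26440482): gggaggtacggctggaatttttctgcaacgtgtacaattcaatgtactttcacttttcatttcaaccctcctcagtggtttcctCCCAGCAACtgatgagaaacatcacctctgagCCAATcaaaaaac
BTN2A1 (chr6:26457805-26457933): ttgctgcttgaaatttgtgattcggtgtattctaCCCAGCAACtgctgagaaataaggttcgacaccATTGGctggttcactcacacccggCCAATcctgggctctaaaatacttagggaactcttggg
The X box core read CCCAGCAAC in all 3 windows, and 23 bases separated it from the CCAAT letters in both BTN3A2 and BTN3A3. In BTN2A1 the distance to CCAAT on the plus strand was 48 bases. An ATTGG, which is CCAAT on the other strand, lay closer, at 26457872 to 26457876, with the X box core at 26457839 to 26457847. The first exon in the count files began before the RefSeq start, so the last 18 bases shown for BTN3A2, 11 for BTN3A3 and 30 for BTN2A1 lay in that exon. The CCAAT of BTN3A2 lay within it, that of BTN3A3 crossed its first base, and that of BTN2A1 lay before it. Over the 250 bases before the RefSeq start, BTN3A2 and BTN3A3 were identical in 85.9% of aligned positions, against 46.0% for BTN3A2 with BTN2A1 and 49.1% for BTN3A3 with BTN2A1. The X box core was searched after these sequences had been read. On either strand it occurred in 1.41% of 35116 RefSeq windows of the same length, CCAAT in 32.0%, and both on 1 strand in 0.319%. None of the 4 windows held TTCNNNGAA (the GAS letters, in 6.57% of all windows), the ISRE pattern (3.02%) or a kappaB pattern (9.96%). Each was 1 fixed pattern, searched on both strands with no mismatch allowed. The windows shown for BTN3A2 and BTN3A3 held letters that differ from the ISRE pattern at 1 base. Such near matches were not counted over all windows, so the search does not show that these promoters lack an ISRE. These matches describe letters and no binding was measured.

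The libraries held between 3626000 and 4406296 counts, and levels are given as CPM, the count scaled to library size with TMM factors. A count of 0 leaves room for up to 3 counts, or 0.674 to 0.863 CPM depending on the library, a limit on counting error only. Of 14 leukocyte markers, 12 were at 0 in all 6 libraries, among them PTPRC, CD3E and TRDC, and the list held 5 counts in total. Its summed level was 0 to 0.261 CPM in untreated and 0.284 to 0.449 CPM in treated libraries. All 8 renal carcinoma epithelial markers were detected, with summed levels of 6319 to 8031 CPM in untreated and 8316 to 11660 CPM in treated libraries, of which VIM was the largest part. Within that list VIM was called higher and PAX8 and KRT19 lower, and their part in the results below was not tested. VIM lost its call without untreated replicate 1 or 2 or treated replicate 1 or 2 (adjusted edgeR p 0.0561 to 0.126), PAX8 without any 1 library but untreated replicate 3 (0.0657 to 0.153), and KRT19 without untreated replicate 2 or treated replicate 2 or 3 (0.0636 to 0.0690). In bulk RNA, fewer cells that express a gene and less RNA per cell cannot be told apart.

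BTN3A3 rose 5.07-fold in treated cells, and it was the 1 gene of the 5 past the threshold. BTN3A1 had a fitted change of 2.88-fold and lay just outside the threshold. BTN3A2, BTN2A1 and BTN2A2 had positive fitted changes of 1.68-fold, 1.33-fold and 1.28-fold, none past it. With edgeR's quasi-likelihood test and a Benjamini-Hochberg adjusted p under 0.05, 8.14% of the 10067 genes tested were called, 5.58% higher and 2.55% lower in treated cells. The members' median log2 difference (the log2 fold change, treated over untreated) was 0.75, beside -0.03 over all genes tested. In 4 of the 5 genes the lowest treated value exceeded the highest untreated value, which held for 13.9% of all genes tested.

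BTN3A3 (ENSG00000111801; GRCh38 chromosome 6, 26440472 to 26453415) had 20, 19 and 59 counts in untreated replicates 1, 2 and 3, or 5.21, 4.89 and 13.3 CPM after TMM scaling. In treated replicates 1, 2 and 3 it had 134, 166 and 158 counts, or 38.6, 37.3 and 44.9 CPM. The groups lay far apart, although untreated replicate 3 was well above the other untreated libraries. The untreated mean was 7.81 ± 4.79 CPM and the treated mean 40.2 ± 4.06 CPM (SD, n = 3 each). The log2 difference was 2.34 (SE 0.38) with an adjusted edgeR p of 0.0049. It stayed past the threshold in all 14 alternative fits, with values from 2.10 to 2.98 and adjusted p from 2.22e-12 to 0.0272.

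BTN3A1 (ENSG00000026950; chromosome 6, 26402237 to 26415208), the phosphoantigen sensor, had 23, 33 and 90 counts in untreated replicates 1, 2 and 3, or 6.0, 8.49 and 20.4 CPM. Its treated replicates held 106, 140 and 139 counts, or 30.5, 31.4 and 39.5 CPM. The groups did not overlap, and untreated replicate 3 lay between the other untreated libraries and the treated ones. Means were 11.6 ± 7.67 and 33.8 ± 4.93 CPM (SD, n = 3 each), a log2 difference of 1.52 (SE 0.41) with an adjusted edgeR p of 0.0542. This call depended on the fit: 8 of 14 alternatives put the gene past the threshold, and adjusted p ran from 1.18e-05 to 0.197. Without untreated replicate 3 the log2 difference was 2.21 (adjusted edgeR p 0.000303), and calls over all genes went from 819 to 1178. Without any 1 of the other libraries BTN3A1 stayed outside the threshold (adjusted edgeR p 0.0745 to 0.197).

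BTN3A2 (ENSG00000186470; chromosome 6, 26365159 to 26378320), which encodes the protein without a B30.2 domain, had 32, 29 and 73 counts in untreated and 59, 73 and 75 counts in treated replicates. These were 8.34, 7.46 and 16.5 CPM against 17.0, 16.4 and 21.3 CPM. The groups overlapped, because untreated replicate 3 exceeded treated replicate 2. Means were 10.8 ± 4.99 and 18.2 ± 2.68 CPM (SD, n = 3 each), with a log2 difference of 0.75 (SE 0.34) and an adjusted edgeR p of 0.262. Without untreated replicate 3 the value was 1.19 and the adjusted edgeR p 0.0186. Without any 1 of the other libraries BTN3A2 stayed outside the threshold (adjusted edgeR p 0.312 to 0.603).

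BTN2A1 (ENSG00000112763; chromosome 6, 26457904 to 26476621), the partner that contacts the T cell receptor, had 69, 62 and 67 counts in untreated and 82, 88 and 78 counts in treated replicates. Scaled, these were 17.99, 15.96 and 15.1 CPM against 23.6, 19.8 and 22.1 CPM. The groups did not overlap, and the gap between them was narrow. The log2 difference was 0.41 (SE 0.21, adjusted edgeR p 0.344), so a range of 2 SE around it ran from -0.02 to 0.84.

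BTN2A2 (ENSG00000124508; chromosome 6, 26383096 to 26394874) had 51, 51 and 70 counts in untreated and 63, 75 and 68 counts in treated replicates. Scaled, these were 13.3, 13.1 and 15.8 CPM against 18.1, 16.8 and 19.3 CPM, again without overlap. The log2 difference was 0.36 (SE 0.22, adjusted edgeR p 0.456), with a range of 2 SE from -0.09 to 0.80. Neither BTN2A gene was past the threshold in any of the 14 alternative fits.

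**Figure D1:**
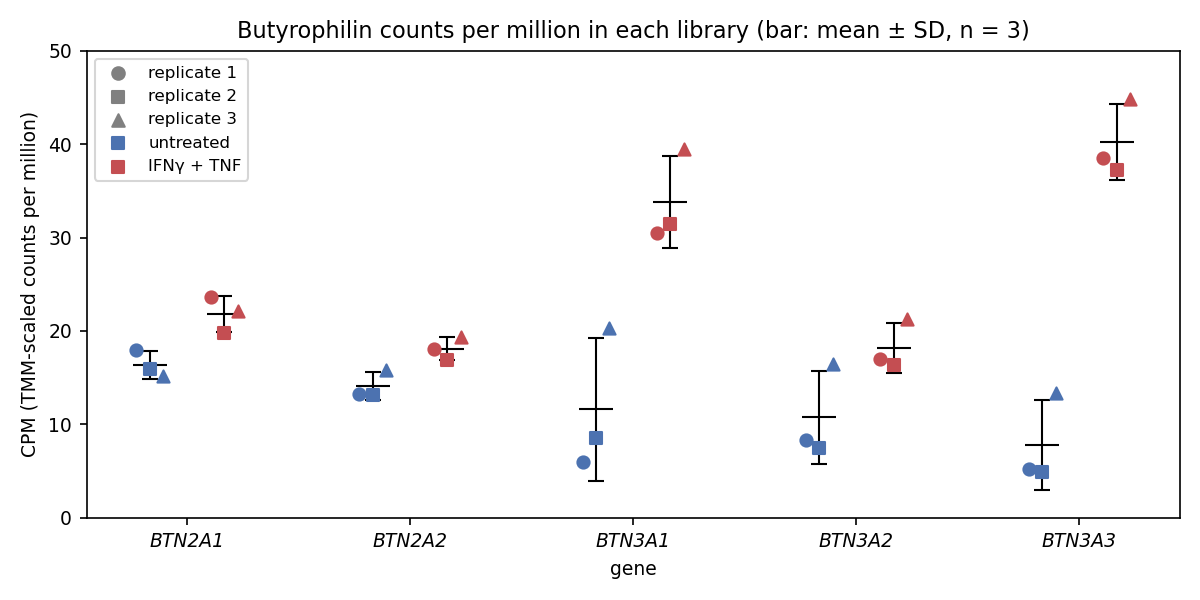
TMM-scaled CPM of the 5 genes (vertical axis) in each library, untreated in blue and treated in red, with a marker shape for each replicate number and black bars for mean ± SD (n = 3). BTN3A3 goes from 4.89 to 13.3 CPM in untreated to 37.3 to 44.9 CPM in treated libraries, and untreated replicate 3 (blue triangles) is high in the BTN3A genes but not in BTN2A1.

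Untreated replicate 3 was above both other untreated libraries in all 3 BTN3A genes and in BTN2A2, and below both in BTN2A1. Its level over the mean of untreated replicates 1 and 2, with 0.5 CPM added to both, was 2.69 for BTN3A1, 2.49 for BTN3A3 and 2.02 for BTN3A2. The ratio was 1.19 for BTN2A2 and 0.896 for BTN2A1, against a median of 1.02 over all genes tested, of which 12.3% had at least 2. For BTN3A1 the exact 95% Poisson interval, which covers counting error only, was 72.4 to 111 counts in replicate 3 and 22.7 to 46.3 counts in replicate 2. Among the genes of the regulator and ligand lists that were called higher, the ratio was 1.90 for CIITA (2 counts in that library), 1.58 for MR1, 1.07 for RFX5, 0.941 for NLRC5, 0.801 for IRF1 and 0.695 for MICB. Genes with 5000 to 8000 exonic bases, a range that holds 4 of the members, had a median ratio of 1.05. The part of this library's other differences in the BTN3A values was not tested.

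**Figure D2:**
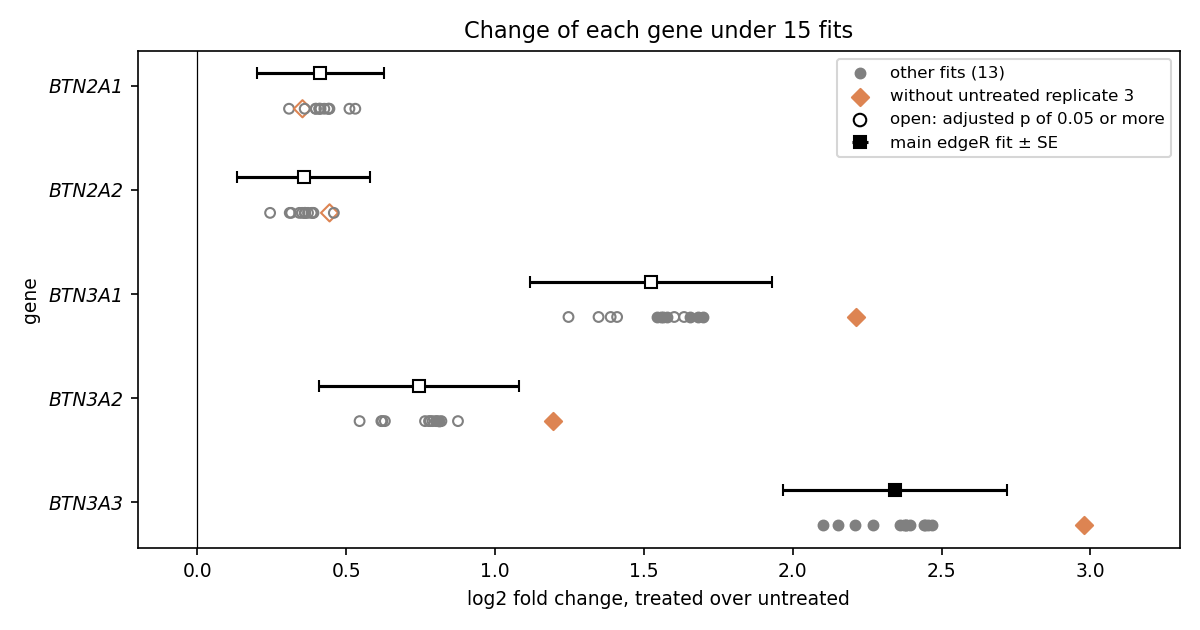
Log2 fold change of each gene (horizontal axis) in the main edgeR fit (squares, ± SE) and under 14 alternatives (circles, with diamonds for the run lacking untreated replicate 3), filled where the adjusted p was under 0.05. BTN3A3 is filled throughout, BTN3A1 is filled in 8 of 14 alternatives, and the BTN2A genes are open throughout.

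The changes of the members were then compared with each other through the log2 ratio of 2 genes within a library (2 counts added to each), which library scaling does not affect. In 6 of 10 pairs the ratios of the 2 groups did not overlap. The ratio of BTN3A3 to BTN2A1 went from -1.159 ± 0.85 to 0.87 ± 0.16 (SD, n = 3 each), a difference of 2.02 (SE 0.50). For BTN3A3 over BTN2A2 the difference was 2.08 (SE 0.36), and for BTN3A3 over BTN3A2 it was 1.62 (SE 0.11). BTN3A3 over BTN3A1 differed by 0.76 (SE 0.17), BTN3A1 over BTN3A2 by 0.86 (SE 0.23) and BTN3A1 over BTN2A2 by 1.32 (SE 0.43). For each of these 6 the exact permutation p (2-sided) was 0.1, the smallest that 3 against 3 libraries allow, and 0.167 after adjustment over the 10 pairs, so none could pass. The ratio of BTN2A1 to BTN2A2 differed by 0.05 (SE 0.15, exact permutation p = 0.9), and its sign changed without untreated replicate 3 or without treated replicate 1.

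As a share of the summed counts of the 5 genes, BTN3A3 made up 10.3%, 9.79% and 16.4% in untreated replicates 1, 2 and 3 and 30.2%, 30.6% and 30.5% in the treated ones. Its share went from 12.2% ± 3.71 to 30.4% ± 0.231 (SD, n = 3 each). BTN3A1 took 17.96% ± 6.69 in untreated and 25.5% ± 1.51 in treated cells, with overlapping groups. The shares of BTN2A1, BTN2A2 and BTN3A2 were lower in every treated than in every untreated library, with mean differences of -12.1, -10.3 and -3.49 percentage points. For BTN3A2 that difference was -1.93 without untreated replicate 3, and for BTN3A1 the difference of 7.55 points was 4.47 without untreated replicate 1. Exact permutation p was 0.1 for BTN3A3 and for these 3 genes and 0.2 for BTN3A1, or 0.125 and 0.2 after adjustment over the 5 genes. The 3 BTN3A genes together held 38.5%, 41.8% and 61.8% of these counts without cytokines and 67.3%, 69.9% and 71.8% with them. Shares are parts of 1 sum in each library, so the tests of the 5 genes are not independent. A lower share is not a lower level, since the fitted changes of BTN2A1, BTN2A2 and BTN3A2 were 1.33-fold, 1.28-fold and 1.68-fold, none past the threshold.

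**Figure D3:**
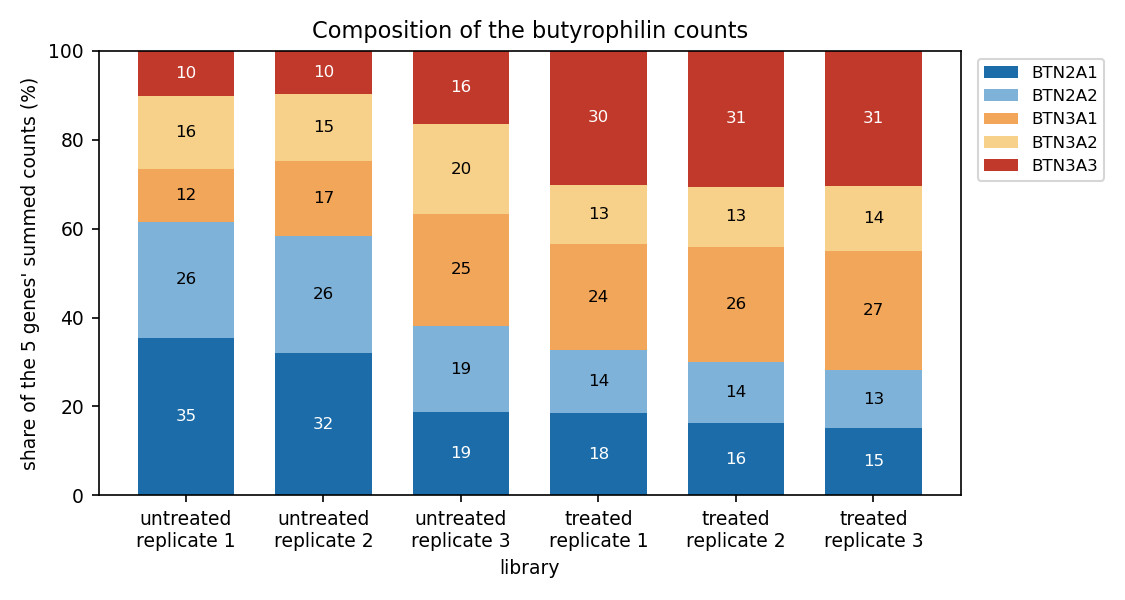
Share of each gene in the summed counts of the 5 genes (vertical axis, %) for each of the 6 libraries. The BTN3A3 segment is close to 30% in the 3 treated libraries and at most 16.4% in the untreated ones, and the summed BTN3A segments of untreated replicate 3 (61.8%) lie between those of the other untreated and the treated libraries.

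To set levels of different genes side by side, CPM were divided by the exonic length in kilobases. In untreated cells BTN2A1 had the highest level per length, 4.32 ± 0.386 CPM per kilobase (SD, n = 3), with no overlap with the next gene, BTN2A2 (2.20 ± 0.237). BTN3A1 (2.10 ± 1.38), BTN3A2 (1.53 ± 0.708) and BTN3A3 (1.38 ± 0.846) followed, and neighbours among these 4 genes overlapped. In treated cells BTN3A3 had 7.11 ± 0.718, BTN3A1 6.10 ± 0.890 and BTN2A1 5.77 ± 0.511 CPM per kilobase (SD, n = 3 each), each overlapping the next. BTN2A2 (2.83 ± 0.193) and BTN3A2 (2.59 ± 0.380) lay below these 3 and overlapped each other. BTN3A3 was thus last in order in untreated and first in treated cells. The division matters to this order, since the exonic length was 3787 bases for BTN2A1 and 5539 to 7042 bases for the others, and it sums all annotated exons while a direct RNA read stands for 1 molecule. In CPM without it, treated BTN3A1 (30.5 to 39.5) and BTN2A1 (19.8 to 23.6) did not overlap. Untreated BTN2A1 (15.1 to 17.99) and BTN2A2 (13.1 to 15.8) then overlapped, and in untreated replicate 3 BTN3A1 (20.4) was above BTN2A1 (15.1).

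The members are close paralogs, which bears on how reads were assigned. No exon of the 5 genes overlapped an exon of another gene on either strand. Of the 31-base words in the GENCODE 29 transcripts of BTN3A3, 22.3% also occurred in transcripts of another gene. That share was 22.7% for BTN3A2, 15.02% for BTN3A1, 13.6% for BTN2A1 and 7.17% for BTN2A2. BTN3A3 shared 19.8% of its words with BTN3A2 and 7.39% with BTN3A1, whereas no word was shared between any BTN2A and any BTN3A gene. How the aligner and the counting placed reads among the BTN3A genes was not tested, and their separate values are uncertain to that extent.

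In the cluster and the 200 kb on either side of it, 39 other genes were listed and 4 of them tested, BTN2A3P, HMGN4, ABT1 and H2BC5. None was called by edgeR, DESeq2 or limma voom, and 0 had an unadjusted edgeR p under 0.05. Over all genes tested, edgeR called 8.14%, and with 4 genes 0 calls lies near that share. H2BC5 had low counts, 3, 11 and 14 in untreated and 5, 15 and 3 in treated replicates. The pseudogene BTN2A3P lies between BTN3A1 and BTN3A3 (26421391 to 26432383) and held 22, 9 and 15 counts before and 19, 12 and 11 after treatment, a log2 difference of -0.03 (SE 0.46). HMGN4, the most abundant of the 4, had a log2 difference of -0.10 (SE 0.21).

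**Figure D4:**
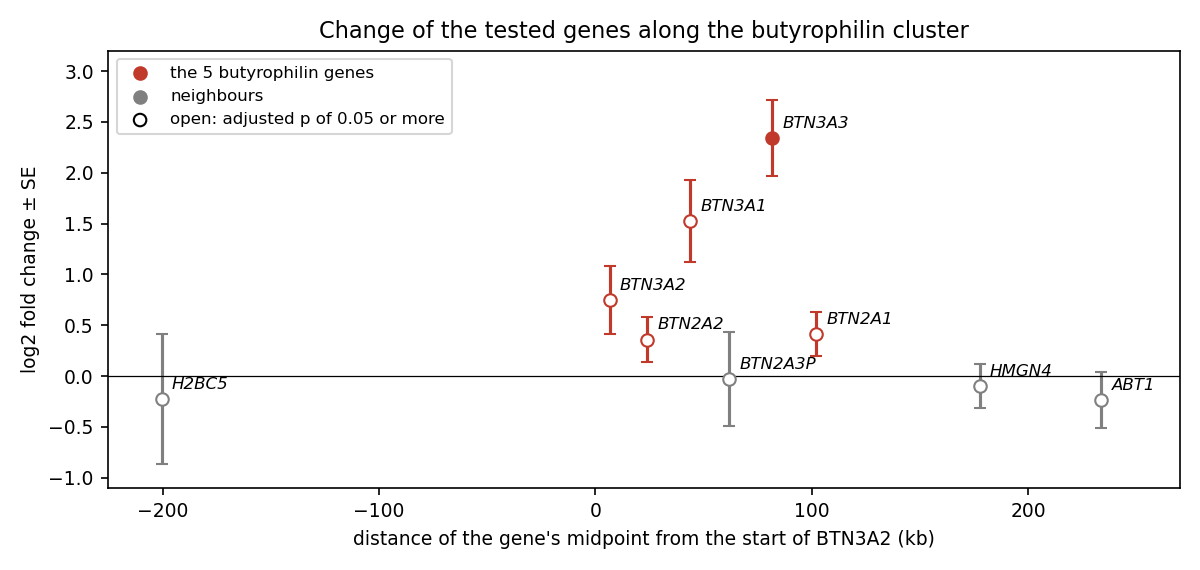
Log2 fold change ± SE of the 9 tested genes of the region (vertical axis) by distance of the gene's midpoint from the start of BTN3A2 in kilobases (horizontal axis), the 5 butyrophilin genes in red and neighbours in grey, filled where the adjusted p was under 0.05. BTN3A3 at 2.34 is the filled point, and BTN2A3P, which lies between BTN3A1 and BTN3A3, is at -0.03.

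Other genes of the butyrophilin family gave little signal. Of 9 listed, 2 were tested, BTN2A3P and ERMAP, and neither was called in any fit. The main fit called 8.14% of all genes tested. ERMAP, which carries the Scianna blood group, had 3.63 ± 1.36 CPM untreated and 3.71 ± 0.733 CPM treated (SD, n = 3 each). BTN1A1 and BTNL9 had 1 count each over the 6 libraries. BTNL2, BTNL3, BTNL8, BTNL10P and MOG were at 0 in all 6.

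The regulator list held factors that act on MHC and butyrophilin promoters, and 4 of its 5 tested genes were called higher, with none lower. The share called higher over all genes tested was 5.58%. The list had a median log2 difference of 3.09, also with CIITA set to its bound. NLRC5 had 13.04, 11.1 and 11.3 CPM in the untreated and 118, 97.5 and 86.3 CPM in the treated replicates, a log2 difference of 3.09 (SE 0.21, adjusted edgeR p 3.62e-05). CIITA had 0, 0 and 2 counts in untreated and 47, 54 and 35 counts in treated replicates (adjusted edgeR p 0.000639). IRF1, the most abundant of the list, went from 33.8 ± 5.93 to 1325 ± 156 CPM (SD, n = 3 each, adjusted edgeR p 3.34e-06). RFX5, the DNA-binding subunit of the RFX complex, had 24.4 ± 1.00 and 40.1 ± 1.31 CPM (SD, n = 3 each), a log2 difference of 0.71 with an adjusted edgeR p of 0.047. RFX5 was not past the threshold in 8 of 14 alternatives, among them DESeq2 (adjusted p 0.0594) and each fit without 1 library other than untreated replicate 3 (adjusted edgeR p 0.0994 to 0.194). RFXANK had a log2 difference of -0.24 (adjusted edgeR p 0.646), and RFXAP, with 2 to 16 counts a library, was not tested.

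Mevalonate and isoprenoid enzymes make and use the phosphoantigen isopentenyl pyrophosphate. Of 10 listed, 9 were tested and 0 were called by edgeR, near the 8.14% called over all genes tested. Their median log2 difference was -0.18 and 8 of 9 values were negative, beside 52.7% of all genes tested. Without untreated replicate 1 or without treated replicate 2, 5 of the 9 were negative, and without treated replicate 1 the median was -0.06. At an unadjusted edgeR p under 0.05 there was 1, MVK (47.9 ± 1.10 against 33.7 ± 5.78 CPM, SD, n = 3 each, adjusted edgeR p 0.184), and DESeq2 and limma voom called 0. With 1 surrogate variable MVK was called lower. FDPS, the farnesyl pyrophosphate synthase and the most abundant of the list, had 232 ± 47.8 CPM untreated and 220 ± 31.1 CPM treated. Among genes known to work with BTN3A1 inside the cell, the small GTPase gene RHOB had 377 ± 140 CPM untreated and 199 ± 25.9 CPM treated (SD, n = 3 each), with a log2 difference of -0.93 and an adjusted edgeR p of 0.0665. RHOB passed in 5 of 14 alternatives, among them DESeq2 (adjusted p 0.0218) and edgeR's test leaving out untreated replicate 1 (adjusted p 0.0305). Without untreated replicate 3, which held 2369 of its counts against 1034 and 1268 in the other untreated libraries, the log2 difference of RHOB was -0.59 (adjusted edgeR p 0.0613). ABCA1 had 2 to 11 counts a library and was not tested, and PPL was at 0 in all 6 libraries.

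Of 13 other ligands of gamma-delta T cells and NK cell receptors, 7 were tested and 2 were called higher. Over all genes tested, 5.58% were called higher. MR1, which presents vitamin B metabolites to T cells, had means of 13.7 ± 4.04 and 32.8 ± 4.83 CPM (SD, n = 3 each), a log2 difference of 1.25 with an adjusted edgeR p of 0.02. MICB, a stress ligand of the receptor NKG2D, had 8.91 ± 1.85 and 19.9 ± 0.708 CPM, a log2 difference of 1.158 with an adjusted edgeR p of 0.0221. MICB was not called without untreated replicate 2 or without any 1 of the treated replicates (adjusted edgeR p 0.0630 to 0.0895), and MR1 was not called without untreated replicate 2 (0.0988), without treated replicate 3 (0.0914) or with library totals alone (0.0538). MICA, the paralog of MICB, had 62.5 ± 15.8 CPM untreated and 41.0 ± 4.05 CPM treated (log2 difference -0.61, adjusted edgeR p 0.177). MICA was called lower without untreated replicate 3 (-0.81, adjusted edgeR p 0.0186) and with 1 surrogate variable (-0.61, adjusted edgeR p 0.0359). ANXA2 was the most abundant of the list and had a log2 difference of -0.05.

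**Figure D5:**
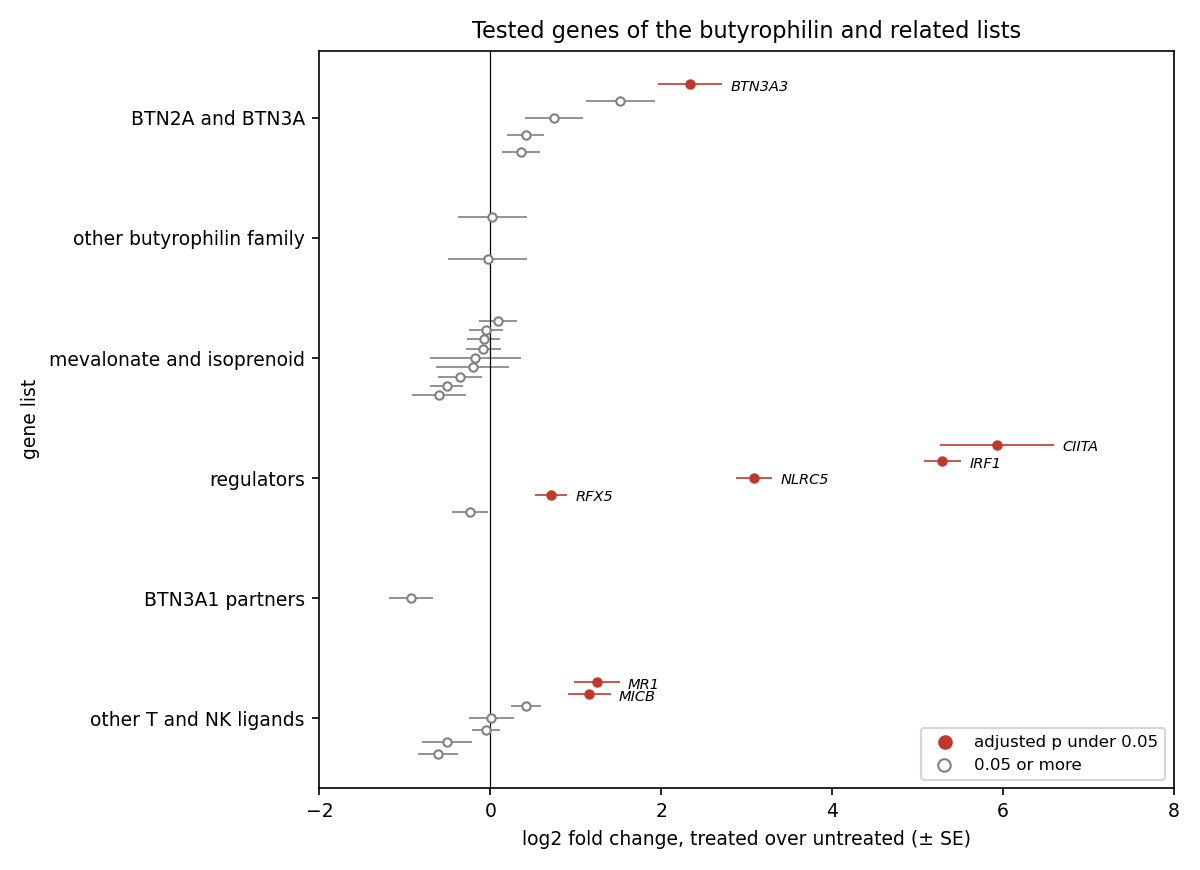
Log2 fold change ± SE (horizontal axis) of the tested genes of 6 lists, filled red and named where the adjusted p was under 0.05. Calls lie in the regulators (4), the other T and NK cell ligands (2) and BTN3A3, and the fitted value of CIITA depends on the prior count because its untreated libraries held 2 counts or fewer.

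The genes most like the BTN3A genes across the 6 libraries were found by the root mean square difference between centred log2 CPM and the mean centred profile of BTN3A1, BTN3A2 and BTN3A3, among the 6739 tested genes whose mean reached 10 CPM. They were CEBPD (0.155), ERAP1 (0.186), PDZK1IP1 (0.189), GSN (0.203) and LGALS3BP (0.203), in log2 units. ERAP1, an endoplasmic reticulum aminopeptidase, had 30, 45 and 127 counts in untreated and 138, 212 and 189 counts in treated replicates. CEBPD, which encodes a transcription factor, had 85, 113 and 299 counts in untreated and 385, 376 and 467 counts in treated replicates. The profile itself has untreated replicate 3 above the other untreated libraries, so the same feature in these genes follows from how they were chosen. Ranking by Pearson correlation over the same 6 libraries gave another 5 genes, with 0 in common.

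Scaling to library totals alone placed the median log2 difference of all genes at -0.13 and split the calls into 485 higher and 364 lower, against 562 and 257 with TMM. Under that scaling the log2 differences were 2.21 for BTN3A3, 1.39 for BTN3A1, 0.62 for BTN3A2, 0.31 for BTN2A1 and 0.24 for BTN2A2, all still positive.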

How the data were processed

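Poly(A) RNA from 3 untreated and 3 treated RCC4 cultures was read by direct RNA sequencing. The deposited values are raw read counts per gene from featureCounts 2.0.1 in long-read, strand-specific mode on exons of Ensembl 105 (GRCh38), per the file headers. The submitters' processing notes name minimap2 2.24, SAMtools 1.16 and featureCounts 2.0.0. Alignment names in all 6 headers carry the word dmso, which the labels do not explain. Groups and replicate numbers come from the sample titles. The members and gene lists were chosen with earlier results of these data known. Named genes are the members, called members of the lists, the most abundant tested gene of each list, called neighbours and the 5 genes most like the BTN3A profile. Others were chosen after their values were seen. A gene of the regulator list is not reported here and is left out of its counts.

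Counts were tested with edgeR 4.0.16 (R 4.3.3), using TMM, filterByExpr, the quasi-likelihood F test and Benjamini-Hochberg adjustment over 10067 genes at 0.05. Standard errors are the absolute log2 difference over the square root of F. The edgeR, DESeq2 and limma fits were tested on simulated counts. Alternatives were DESeq2 size factors, library totals, 2 filters, DESeq2 1.42.0, limma voom 3.58.1, the replicate number as a block, leaving out each library, and, added after the data were examined, 1 surrogate variable (sva 3.50.0). Symbols came from a name table (61369 of 61541 identifiers) and GENCODE 29.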

Additional observations from a re-analysis of the deposited data

How the results depend on the processing

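BTN3A3, BTN2A1 and BTN2A2 kept their direction and their side of the threshold in all 14 alternative fits. BTN3A1, at a log2 difference of 1.52 in the main analysis, passed the threshold with DESeq2 size factors (1.55), every gene with at least 1 count (1.56), at least 10 counts in 3 libraries (1.56), DESeq2 (1.58), limma voom (1.68), the replicate block (1.65) and 1 surrogate variable (1.70), as well as without untreated replicate 3. BTN3A2 passed with the replicate block (0.81) and without untreated replicate 3. The count of members called, 1 in the main analysis, was 2 with DESeq2 size factors, both other filters, DESeq2, limma voom and 1 surrogate variable, and 3 with the replicate block. Over all genes, calls numbered 819 of 10067 in the main analysis and 1328 of 19158 with all genes that had any count. They were 1513 of 10067 with the replicate block and 1662 of 10067 with 1 surrogate variable. DESeq2 size factors gave 824 of 10067, at least 10 counts in 3 libraries 837 of 10207, DESeq2 968 of 19158 and limma voom 795 of 10067. Leaving out 1 library gave 455 to 1178 calls, with 10239 to 10523 genes tested.

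Leaving out 1 library at a time gave log2 differences of 2.10 to 2.98 for BTN3A3, 1.25 to 2.21 for BTN3A1, 0.54 to 1.19 for BTN3A2, 0.35 to 0.53 for BTN2A1 and 0.31 to 0.46 for BTN2A2. It gave 1 to 3 members called and 3 to 7 calls over the 5 context lists, which had 6 in the main analysis and 3 without untreated replicate 2 or without treated replicate 3. The difference between BTN2A1 and BTN2A2 ran from -0.084 to 0.16 and was the 1 difference between members whose sign changed. It was -0.084 without untreated replicate 3 and -0.002 without treated replicate 1. The cause of these shifts was not tested.

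Deviations of same-numbered libraries from their group means had correlations of 0.65, -0.004 and 0.37 for replicates 1, 2 and 3. Unlike-numbered libraries gave -0.67 to 0.41, the highest for untreated replicate 3 with treated replicate 2. The numbers were therefore not taken as pairs, and the replicate block moved the calls as given above. Counts of 19 to 166 per library limit the precision for each member.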
